A study of Mus musculus with 12 samples.

Results

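The mouse prostate is surrounded by periprostatic white fat, and a dissected prostate can carry some of it into the RNA. A set of 10 adipocyte genes (Adipoq, Fabp4, Plin1, Plin4, Cidec, Lep, Retn, Cfd, Lpl and Pparg) was followed in all 12 libraries of a mouse RNA sequencing study as a measure of that fat. The genes were chosen by name as known adipocyte genes, and all 10 were listed among the 24421 genes of the deposited tables. The values are FPKM, fragment counts scaled to transcript length and to the library total, so that they are relative levels.

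The libraries fell into 7 groups. The TRAMP groups were of the strain C57BL/6-Tg(TRAMP)8247Ng/J, a model in which the probasin promoter drives the SV40 tumor antigens in prostate epithelium. They comprised 1 tumor from an unknown lobe on control diet at 24 weeks of age, 2 prostates on PEITC diet and 2 on control diet at 24 weeks, and 2 on PEITC diet and 2 on control diet at 16 weeks. Wild type C57BL/6 prostates on control diet made up the other groups, with 2 libraries at 24 weeks and 1 at 16 weeks. The control diet was AIN93M, and the PEITC diet held 0.05% (w/w) phenethyl isothiocyanate, a compound of cruciferous vegetables. All prostate libraries came from the ventral and dorsolateral lobes. The labels do not say whether libraries of a group came from separate animals or pools, so that the p-values rest on the differences among these samples, which may be technical.

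The depth in fragments is not given. Steps between low FPKM values placed the relative depth of the libraries between 0.635 and 1 of the deepest. Epithelial Krt8 lay between 346 and 614 FPKM and Epcam between 352 and 559 FPKM in all 12 libraries, as the label of prostate tissue requires. The 16-week wild type library stood apart. Svs2, a seminal vesicle secretory protein, had 3095 FPKM there, and the 4 seminal vesicle markers summed to 7745 FPKM, against at most 8.02 FPKM in any other library. Its 6 skeletal muscle markers summed to 85.5 FPKM, against 16.0 to 34.7 FPKM elsewhere. Results that rest on that library are given with the 24-week wild type libraries in its place as well.

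Mature fat cells store triglyceride in a droplet coated by perilipins, take up fatty acids that lipoprotein lipase frees from circulating lipoproteins, and secrete hormones and complement factors into the blood. Pparg, a nuclear receptor, drives the making of fat cells, together with C/EBP transcription factors. Some of the 10 genes are also used outside fat. Fabp4 is made in capillary endothelium and macrophages, Lpl in macrophages and muscle, and Pparg in several epithelia and macrophages, while Adipoq and Plin1 are close to restricted to fat cells.

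Adipocyte transcripts were present at very unequal levels in the dissected prostates, and libraries of the same group differed as well. The highest level of Adipoq over the 12 libraries was 172 times the lowest. For Cfd this ratio was 462, for Retn 179, for Plin1 164, for Fabp4 16.2, for Plin4 9.45, for Lpl 7.83 and for Pparg 2.20. Cidec and Lep were listed at 0 in replicate 1 of the 24-week wild type prostates, so no such ratio was formed for them. In a bulk sample, fewer fat cells and less of these RNAs per fat cell cannot be told apart.

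Of the secreted products, Adipoq encodes adiponectin, a hormone of fat cells. It had 1.42 FPKM in the tumor, 0.863 and 18.9 FPKM in 24-week PEITC prostates, 3.35 and 14.1 FPKM in 24-week TRAMP control prostates, and 4.21 and 0.110 FPKM in 24-week wild type prostates. At 16 weeks Adipoq had 0.762 and 1.25 FPKM in PEITC prostates, 3.70 and 0.255 FPKM in TRAMP control prostates and 1.24 FPKM in the wild type prostate. One library each of the 24-week PEITC and TRAMP control groups was far above the rest, the other libraries of these groups lay among those of the remaining groups, and no pair of 24-week prostate groups was apart. The group means had the order 24-week PEITC (9.88 ± 12.8 FPKM, SD, n = 2), 24-week TRAMP control (8.74 ± 7.62 FPKM, n = 2), 24-week wild type (2.16 ± 2.90 FPKM, n = 2), 16-week TRAMP control (1.98 ± 2.44 FPKM, n = 2), the tumor, the 16-week wild type prostate and 16-week PEITC (1.01 ± 0.344 FPKM, n = 2). Neighbouring groups of 2 libraries differed by less than the larger of their SDs, and the tumor and the 16-week wild type prostate are single libraries.

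Cfd, which encodes adipsin (complement factor D), varied the most. It had 5.02 FPKM in the tumor, 6.60 and 134.8 FPKM in 24-week PEITC prostates, 23.2 and 97.2 FPKM in 24-week TRAMP control prostates, and 27.1 and 0.292 FPKM in 24-week wild type prostates. At 16 weeks it had 13.1 and 15.6 FPKM in PEITC prostates, 13.3 and 1.32 FPKM in TRAMP control prostates and 11.0 FPKM in the wild type prostate. The same libraries as for Adipoq were at the top and at the bottom. Retn, which encodes the hormone resistin, had 0.661 FPKM in the tumor, 0.284 and 6.25 FPKM in 24-week PEITC prostates, 0.900 and 5.69 FPKM in 24-week TRAMP control prostates, and 1.07 and 0.035 FPKM in 24-week wild type prostates. At 16 weeks Retn lay between 0.109 and 1.18 FPKM in all 5 libraries.

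Lep, the gene of the satiety hormone leptin, was the lowest of the 10 on the FPKM scale and did not follow the same order. It had 0.316 FPKM in the tumor, 0.0102 and 0.591 FPKM in 24-week PEITC prostates, 0.346 and 0.648 FPKM in 24-week TRAMP control prostates, and 0.0141 and 0 FPKM in 24-week wild type prostates. At 16 weeks it had 0.0144 and 0.0112 FPKM in PEITC prostates, 0.539 and 0.0429 FPKM in TRAMP control prostates and 0.121 FPKM in the wild type prostate. Corrected for relative depth, all values above 0 were within 0.467% of a whole multiple of the smallest. Replicate 0 of the 24-week PEITC, both 16-week PEITC libraries and replicate 0 of the 24-week wild type group held 1 such step, and the other libraries above 0 held about 4 to 64 steps. The tumor thus held about 23 steps of Lep at 1.42 FPKM of Adipoq and replicate 0 of the 16-week TRAMP control group about 52 steps at 3.70 FPKM of Adipoq, whereas replicate 0 of the 24-week wild type group held 1 step at 4.21 FPKM of Adipoq.

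**Figure D1:**
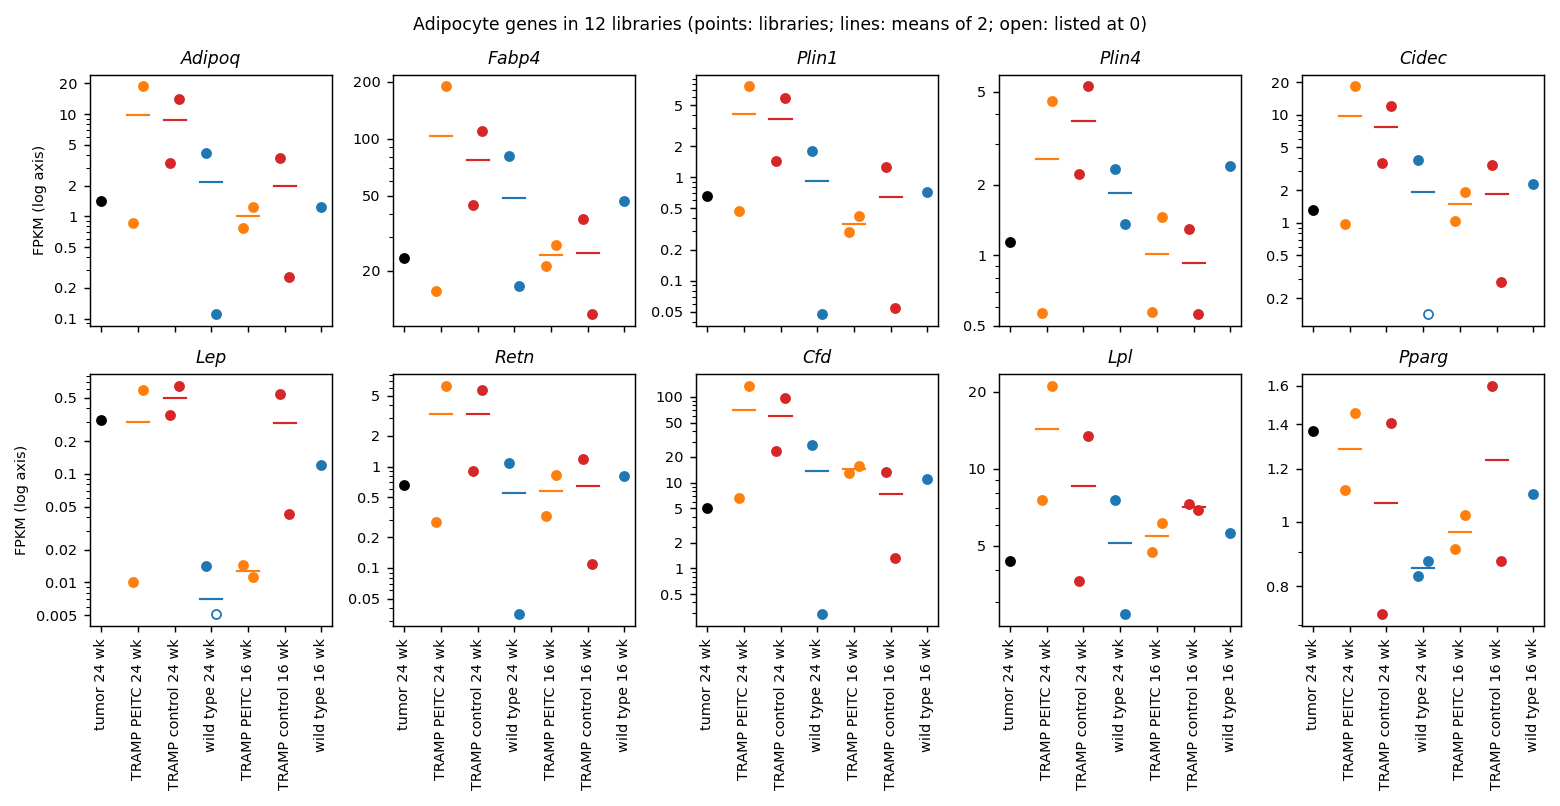
FPKM of each adipocyte gene (log axis, one panel a gene) in the 12 libraries by group; points are libraries, lines are the means of the groups with 2 libraries, and open points mark libraries listed at 0. Adipoq runs from 0.110 to 18.9 FPKM and its highest and lowest libraries belong to groups whose other library lies far from them, whereas Pparg stays between 0.727 and 1.60 FPKM.

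Among the lipid droplet genes, Plin1 encodes the perilipin that coats the droplet and gates lipolysis. It had 0.654 FPKM in the tumor, 0.468 and 7.69 FPKM in 24-week PEITC prostates, 1.45 and 5.90 FPKM in 24-week TRAMP control prostates, and 1.80 and 0.047 FPKM in 24-week wild type prostates. At 16 weeks Plin1 had 0.294 and 0.421 FPKM in PEITC prostates, 1.25 and 0.0547 FPKM in TRAMP control prostates and 0.720 FPKM in the wild type prostate. Its high and low libraries were those of Adipoq. Cidec, whose protein enlarges droplets by lipid transfer between them, had 1.33 FPKM in the tumor, 0.966 and 18.4 FPKM in 24-week PEITC prostates, 3.60 and 11.9 FPKM in 24-week TRAMP control prostates, and 3.84 and 0 FPKM in 24-week wild type prostates. At 16 weeks Cidec lay between 0.285 and 3.40 FPKM. Plin4, another droplet perilipin, ranged less, with 1.14 FPKM in the tumor, 0.566 and 4.56 FPKM in 24-week PEITC prostates, 2.22 and 5.28 FPKM in 24-week TRAMP control prostates, and 2.33 and 1.36 FPKM in 24-week wild type prostates. Its level of 2.40 FPKM in the 16-week wild type prostate was above those of all other 16-week libraries, which had 0.559 to 1.45 FPKM.

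Fabp4, the fatty acid carrier of fat cells, was the most abundant of the 10 on the FPKM scale. It had 23.4 FPKM in the tumor, 15.6 and 190.1 FPKM in 24-week PEITC prostates, 44.8 and 109.1 FPKM in 24-week TRAMP control prostates, and 80.5 and 16.7 FPKM in 24-week wild type prostates. At 16 weeks it had 21.2 and 27.4 FPKM in PEITC prostates, 37.8 and 11.7 FPKM in TRAMP control prostates and 46.8 FPKM in the wild type prostate. Fabp4 kept at least 11.7 FPKM in the libraries where Adipoq, Plin1 and Cidec were near or at 0. Lpl, the lipoprotein lipase, had 4.34 FPKM in the tumor, 7.50 and 21.1 FPKM in 24-week PEITC prostates, 3.62 and 13.4 FPKM in 24-week TRAMP control prostates, and 7.51 and 2.69 FPKM in 24-week wild type prostates. Pparg lay between 0.727 and 1.60 FPKM, and its highest value, in replicate 0 of the 16-week TRAMP control group, and its lowest, in replicate 0 of the 24-week TRAMP control group, were both in libraries of intermediate Adipoq.

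The ratio of each gene to Adipoq within a library does not depend on the library total and separated the 10 genes. Cidec had 0.841 to 1.83 times the FPKM of Adipoq in the 11 libraries where it was above 0, Plin1 0.214 to 0.581 times, and Retn 0.254 to 0.662 times. These ratios spanned 2.17-, 2.71- and 2.60-fold, while Adipoq itself spanned 172-fold. The ratio of Cfd to Adipoq ran from 2.66 to 17.2, a 6.47-fold span. It was wider for Fabp4 (7.72 to 151.9, 19.7-fold), Lpl (0.950 to 27.0, 28.4-fold), Plin4 (0.241 to 12.4, 51.4-fold) and Pparg (0.077 to 7.96, 103.4-fold). The 11 ratios of Lep above 0 spanned 66.6-fold. For Fabp4, Plin4 and Pparg the highest ratio was in replicate 1 of the 24-week wild type prostates, the library with the least Adipoq, and for Lpl in replicate 1 of the 16-week TRAMP control group, the library with the next lowest Adipoq. Adipoq is the denominator, so this place of the highest ratio follows for genes that vary much less than Adipoq.

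**Figure D2:**
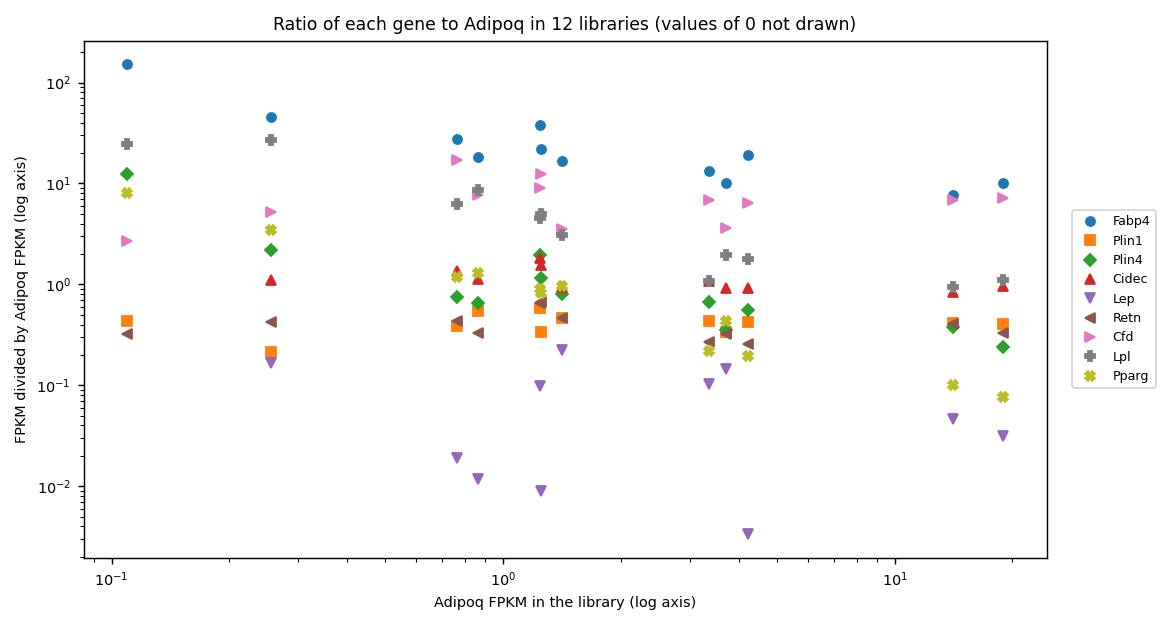
Ratio of the FPKM of each other gene to that of Adipoq in the same library (log axis) against the FPKM of Adipoq (log axis), with one point a library. Plin1 and Retn span 2.71- and 2.60-fold over the 12 libraries and Cidec 2.17-fold over the 11 where it is above 0, whereas the highest ratios of Fabp4, Lpl, Plin4 and Pparg are in the libraries with the least Adipoq. With Adipoq as the denominator, this follows for genes that vary much less than Adipoq.

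Upstream sequence was searched for motifs of fat cell transcription factors and of the core promoter. RefSeq promoters (GRCm38.p6) were at hand for 8 of the 10 genes, all but Fabp4 and Lpl, in 11 windows of 250 bases before a transcription start. Of the genes with the narrowest ratios to Adipoq and of Lep, the windows that held a CCAAT box or a C/EBP core are shown, while Retn, Cfd and the other start of Cidec held none of the motifs searched. They are Adipoq (chr16:23146286-23146535, plus strand), Plin1 (chr7:79732777-79733026, minus strand), Cidec at the more downstream of its starts (chr6:113434765-113435014, minus strand) and Lep (chr6:29059971-29060220, plus strand), each read 5′ to 3′ toward the gene, with capitals marking the CCAAT box and the C/EBP core on either strand.
Adipoq: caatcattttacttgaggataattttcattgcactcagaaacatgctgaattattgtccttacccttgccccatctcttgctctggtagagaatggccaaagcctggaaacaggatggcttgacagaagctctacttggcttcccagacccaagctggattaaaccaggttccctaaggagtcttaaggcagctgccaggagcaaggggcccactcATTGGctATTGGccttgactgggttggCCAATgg
Plin1: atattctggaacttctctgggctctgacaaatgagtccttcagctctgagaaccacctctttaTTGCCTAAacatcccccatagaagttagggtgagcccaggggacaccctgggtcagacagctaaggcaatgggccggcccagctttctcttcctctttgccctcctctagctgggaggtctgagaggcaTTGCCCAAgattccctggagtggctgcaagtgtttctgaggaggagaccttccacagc
Cidec: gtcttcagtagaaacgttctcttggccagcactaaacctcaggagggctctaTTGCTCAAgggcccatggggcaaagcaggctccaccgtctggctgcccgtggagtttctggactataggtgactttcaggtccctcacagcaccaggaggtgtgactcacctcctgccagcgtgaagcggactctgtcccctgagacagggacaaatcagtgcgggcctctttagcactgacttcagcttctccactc
Lep: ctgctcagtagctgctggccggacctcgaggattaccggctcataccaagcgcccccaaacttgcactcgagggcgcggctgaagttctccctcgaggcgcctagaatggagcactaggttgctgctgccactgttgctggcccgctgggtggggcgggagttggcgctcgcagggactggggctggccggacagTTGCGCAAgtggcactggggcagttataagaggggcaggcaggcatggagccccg
The C/EBP core TTGCNNAA, searched on both strands, was in windows of Plin1, Cidec, Lep and Pparg, and in 9.56% of the 32851 RefSeq windows of the same length. Plin1 held it 187 and 58 bases before the start, Cidec 198 bases before the start shown, and Lep 55 bases before the start in the palindromic form TTGCGCAA, which is itself a case of the core and was in 0.164% of all windows. Adipoq held CCAAT 7 bases before the start and on the opposite strand at 27 and 34 bases before it. CCAAT was also in windows of Plin4 and Pparg, and in 33.8% of all windows. A strict form of the PPAR response element, the letters AGGTCA repeated in the same direction after 1 base, was in none of the 11 windows and in 0.0335% of all windows. A single copy of AGGTCA (14.0% of all windows) and the TATA box TATAAA (12.4%) were found in windows of Pparg alone among the 8 genes. That match to TATAAA lay on the opposite strand, 29 bases before the start. All motifs were searched, and all shares counted, on both strands. These matches describe letters in a short window only.

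Within each group of 2 libraries, the 10 adipocyte genes mostly differed in the same direction. Replicate 2 of the 24-week TRAMP control group had more Adipoq than replicate 0, by 4.22 times, and was higher for 10 of the 10 genes. Replicate 1 of the 24-week PEITC group had 21.9 times the Adipoq of replicate 0 and was higher for 10 of 10. Replicate 0 of the 16-week TRAMP control group had 14.5 times the Adipoq of replicate 1 and was higher for 10 of 10. In the 16-week PEITC group, replicate 1 had 1.64 times the Adipoq of replicate 0 and was higher for 9 of 10, with Lep the exception at 1 step in each library. Replicate 0 of the 24-week wild type group had 38.4 times the Adipoq of replicate 1 and was higher for 9 of 10, with Pparg the exception. Since the higher library was chosen by Adipoq, Adipoq adds nothing to these counts. Of 36 further adipocyte genes, 27, 32, 21, 21 and 24 were higher in the same libraries, in the same order of groups. Their median differences were 0.22, 0.42, 0.11, 0.07 and 0.07 on the log2(FPKM + 1) scale. Over the 13375 genes tested the same library was higher for 45.6% to 51.4%.

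The size of the replicate difference in most of the 10 adipocyte genes was among the largest in the data. The standard deviation of log2(FPKM + 1) within groups was 2.19 for Cfd, which ranked at 1 of 13375 genes. Adipoq ranked at 7 (1.54), Cidec at 9 (1.47), Fabp4 at 10 (1.47), Plin1 at 26 (1.10), Retn at 28 (1.08), Lpl at 79 (0.78) and Plin4 at 109 (0.72). The median over all genes tested was 0.10. Pparg ranked at 1897 (0.23), and Lep was not ranked because its mean level was under 0.5 FPKM. Of the 10 genes with the widest spread 4 were adipocyte genes, and of the top 30, 6 were. Without the 24-week PEITC group, these counts were 1 and 4.

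Markers of other cell types also differed between the same pairs of libraries. Of 13 fibroblast and preadipocyte markers, 13 were higher in the library with more Adipoq of the 24-week TRAMP control pair, 12 of the 24-week PEITC pair, 13 of the 16-week TRAMP control pair, 11 of the 16-week PEITC pair and 7 of the 24-week wild type pair. Of 12 macrophage markers, these counts were 11, 9, 12, 11 and 11, and of 10 endothelial markers 10, 10, 10, 8 and 2. The median difference of the adipocyte genes was 1.49, 2.53, 1.04, 0.34 and 1.31 on the log2(FPKM + 1) scale in the same order of pairs, against 0.96, 0.17, 0.99, 0.23 and 0.09 for the macrophage markers and 0.90, 0.36, 0.57, 0.49 and 0.03 for the fibroblast markers. In the 16-week PEITC pair the fibroblast markers thus differed by more than the adipocyte genes, as did the 6 smooth muscle markers, of which 6 were higher with a median of 0.97. Of 6 skeletal muscle markers, 6 were higher in the 24-week PEITC pair (0.58) and 0 in the 16-week TRAMP control pair (-0.47). The part of these cell types in the levels of the 10 genes was not tested. Mesothelial markers, 4 genes, summed to at most 1.48 FPKM in any library.

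**Figure D3:**
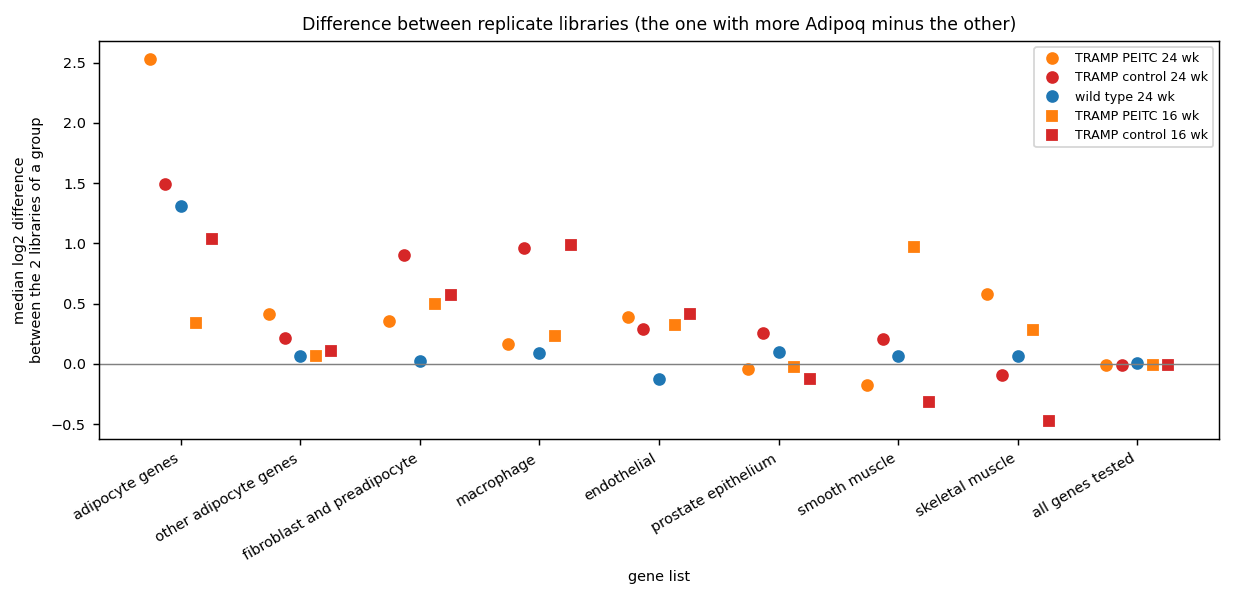
Median difference in log2(FPKM + 1) between the library with more Adipoq and the other library of the same group, for 8 gene lists and all genes tested, with one point for each of the 5 groups with 2 libraries. The adipocyte genes reach 2.53 in the 24-week PEITC pair and 1.49 in the 24-week TRAMP control pair, the macrophage markers reach 0.99, and the medians of all genes lie near 0.

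The genes whose profile over the 12 libraries was nearest to that of Adipoq were sought among all 13375 genes tested, by the root mean square distance between centred log2(FPKM + 1) values. Counting Adipoq itself as rank 1, Cidec came at rank 2 (0.22), Plin1 at 4 (0.35), Fabp4 at 5 (0.43), Retn at 6 (0.47), Plin4 at 12 (0.78), Lpl at 16 (0.83) and Cfd at 17 (0.84). The 10 nearest genes outside the set were Pck1 (0.35), Nnat (0.52), Car3 (0.54), Thrsp (0.59), Cyp2e1 (0.61), Cd36 (0.75), Trf (0.78), Adig (0.80), Rbp4 (0.83) and Fscn1 (0.86). Pck1, the enzyme of glyceroneogenesis in fat, had 10.6 FPKM in replicate 1 of the 24-week PEITC group and 0.0267 FPKM in replicate 1 of the 16-week TRAMP control group. Car3, a carbonic anhydrase abundant in fat and muscle, had 67.8 FPKM in the first of these libraries and 0.324 FPKM in replicate 1 of the 24-week wild type group. Pparg came at rank 780 by this distance (1.18).

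**Figure D4:**
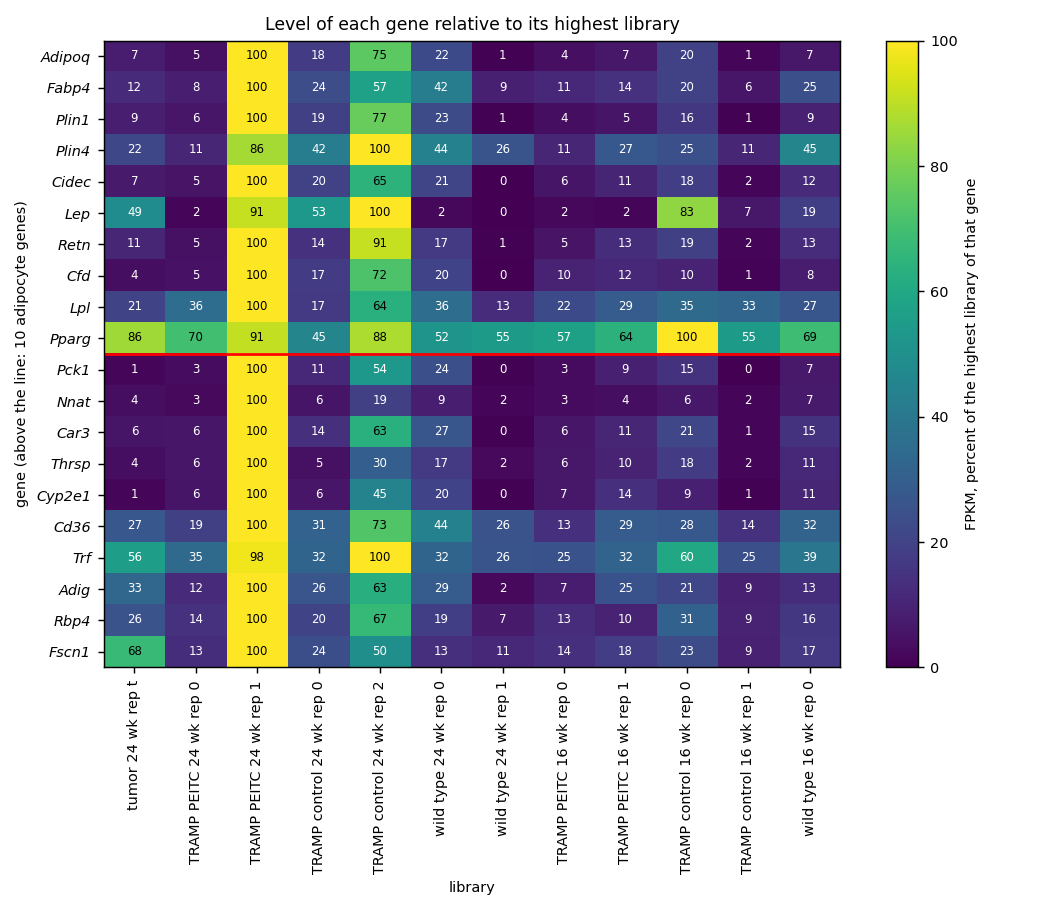
Level of each gene in each library as a percentage of its own highest library, with genes in rows (the 10 adipocyte genes above the line, the 10 nearest other genes below it) and libraries in columns. Replicate 1 of the 24-week PEITC group and replicate 2 of the 24-week TRAMP control group are the strong columns, and the row of Pparg is the most even of the adipocyte genes, which matches its 2.20-fold span.

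The 32 further adipocyte genes that were tested spanned between 1.24-fold (Dgat1) and 395.2-fold (Pck1) over the 12 libraries, and 9 of them less than 2-fold. Acly, the ATP citrate lyase, lay between 52.4 and 72.0 FPKM, a 1.37-fold span, and Gpd1 between 34.4 and 47.4 FPKM, a 1.38-fold span. Fasn, the fatty acid synthase, spanned 1.60-fold and Scd1, a fatty acid desaturase, 1.89-fold. Others of lipid synthesis spanned more, with Gpam at 2.32-fold, Dgat2 at 3.60-fold and Thrsp at 55.0-fold. The brown fat gene Ucp1, which uncouples mitochondrial respiration, had 2.06 FPKM in replicate 1 of the 24-week PEITC group and 0.670 FPKM in replicate 0 of the 24-week wild type group. It had at most 0.0285 FPKM in the others, was listed at 0 in 3 of them, and fell under the minimum mean of 0.5 FPKM. Of 7 brown fat genes, 5 were higher and 2 lower in that PEITC library than in the other of its group. In the wild type pair 6 were higher and 1 lower in replicate 0. Over all genes tested, 45.6% and 51.4% were higher. Prdm16 was lower in both, with 1.34 against 1.51 FPKM on PEITC diet and 0.363 against 0.382 FPKM in wild type.

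A comparison of TRAMP with wild type prostates at 24 weeks asks whether the transgenic prostate carried more adipocyte RNA. Of the 9 adipocyte genes tested, limma (quoted throughout with two-sided p-values adjusted over all genes tested) called 0, while it called 45.0% of all genes, and 0 had an unadjusted p under 0.05, against 53.0% of all genes. All 9 estimates were positive, with a median of 1.27 on the log2(FPKM + 1) scale, and the median of all genes was -0.00 (between -0.01 and 0.02 over all 10 comparisons made). Leaving out single libraries moved the median of the 9 to between 0.38 and 2.01, and pseudocounts of 0.1 and 5 in place of 1 gave 2.53 and 0.52. Without replicate 2 of the TRAMP group, Lpl (-0.28) and Pparg (-0.10) were negative and the others positive. Without replicate 1 of the wild type group, Fabp4 (-0.20) and Lpl (-0.06) were negative and the others positive. The genes mostly differed together between replicates, so shared signs here and below are not separate results. Adipoq differed by 1.75 (95% interval -1.08 to 4.59, adjusted p = 0.278) and Cfd by 3.02 (-1.02 to 7.05, adjusted p = 0.194, the lowest of the 9). The libraries overlapped for all 9 genes, while 36.7% of all genes were higher and 36.5% lower in both TRAMP libraries. Lep, which fell under the minimum mean of 0.5 FPKM, was higher in both TRAMP libraries (0.346 and 0.648 FPKM) than in both wild type libraries (0.0141 and 0 FPKM). Limma without that minimum put its difference at 0.56 (SE 0.25, adjusted p = 0.154), which did not pass.

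At 16 weeks the TRAMP control prostates were set against the single wild type prostate. Limma called 0 of the 9 genes, against 33.6% of all genes, with 0 at an unadjusted p under 0.05, against 45.2% of all genes. The median difference was -0.21, with 3 estimates positive and 6 negative, and the lowest adjusted p was 0.393. Leaving out single libraries moved the median to between -0.83 and 0.31, across 0. Adipoq differed by 0.12 (95% interval -3.35 to 3.59, adjusted p = 0.960). Fabp4 and Plin4 were lower in both TRAMP libraries than in the wild type library, and Lpl was higher in both. Across all genes, 40.4% were lower and 44.2% higher in this sense. With the 24-week wild type libraries in place of the 16-week one, a comparison chosen after seeing the data that also differs in age, limma again called 0 of 9, against 42.1% of all genes, and the median was 0.01. Plin4 alone of the 9 did not overlap there, lower in both TRAMP libraries, as were 35.4% of all genes.

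PEITC diet was compared with control diet in TRAMP mice to ask whether it changed the adipocyte RNA. At 24 weeks limma called 0 of the 9 genes and 0.0% of all genes, and an unadjusted p under 0.05 was found for 0 of the 9 and 9.47% of all genes. The median difference was -0.32, with 2 estimates positive and 7 negative. Adipoq differed by -0.41 (95% interval -3.25 to 2.42, adjusted p = 0.936) and Lpl by 0.75 (-0.70 to 2.20, adjusted p = 0.728). The libraries overlapped for all 9, while 23.7% of all genes were higher and 20.8% lower in both PEITC libraries. The sign of the median depended on single libraries: it was 1.29 without replicate 0 of the PEITC group and -1.52 without replicate 1.

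At 16 weeks limma called 0 of the 9 genes for PEITC against control diet and 0.00748% of all genes, and an unadjusted p under 0.05 was found for 0 of the 9 and 10.1% of all genes. The median difference was 0.00, with 5 estimates positive and 4 negative, and Adipoq differed by -0.29 (95% interval -3.12 to 2.55, adjusted p = 0.962). Lpl was lower in both PEITC libraries than in both control libraries, with 4.72 and 6.15 FPKM against 7.30 and 6.90 FPKM, as were 21.2% of all genes. The difference of the PEITC effect between 24 and 16 weeks was called by limma for 0 of the 9 genes and 0.00748% of all genes, with an unadjusted p under 0.05 for 0 of the 9 and 12.9% of all genes. Its median was -0.23.

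Age was compared on control diet: the 24-week TRAMP prostates had a higher level than the 16-week ones for 8 of the 9 genes by the estimate, with a median of 1.42 (0.77 to 2.16 when single libraries were left out, 2.22 and 0.58 with pseudocounts of 0.1 and 5). Limma called 0 of 9 and 0.00748% of all genes, with an unadjusted p under 0.05 for 0 of 9 and 16.9% of all genes. Plin4 had the lowest adjusted p of 0.318, with a difference of 1.25 (95% interval -0.10 to 2.60). Fabp4, Plin1, Plin4, Cidec and Cfd were higher in both 24-week libraries than in both 16-week libraries, a pattern that 21.5% of all genes had. In TRAMP mice on PEITC diet the median difference between the ages was 1.10 with all 9 estimates positive, limma called 0 of 9 (0 at an unadjusted p under 0.05, against 8.04% of all genes) and 0.0% of all genes, and Plin1, Lpl and Pparg did not overlap, against 22.0% of all genes higher in this sense. That median was 2.68 without replicate 0 of the 24-week PEITC group and -0.28 without replicate 1. The difference between the ages of the TRAMP effect had a median of 1.53, or 0.74 to 2.41 when single libraries were left out, and was called for 0 of 9 genes (0 at an unadjusted p under 0.05, against 15.8% of all genes), against 0.366% of all genes. It rests on the 16-week wild type library. With the 24-week wild type libraries at both ages it becomes the difference between the ages on control diet given above.

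The tumor was compared with TRAMP control prostates of the same age. It lay below both TRAMP libraries for 7 of the 9 genes, all but Lpl and Pparg, as did 41.0% of all genes. Limma called 0 of 9 and 11.8% of all genes, with an unadjusted p under 0.05 for 0 of 9 and 28.5% of all genes. The median difference was -1.31 with 8 estimates negative, and it was between -2.06 and -0.59 when single libraries were left out and -0.57 with a pseudocount of 5. Adipoq differed by -1.75 (95% interval -5.22 to 1.73, adjusted p = 0.497) and Cfd by -3.02 (-7.96 to 1.93, adjusted p = 0.405). The tumor is a single library, whose spread was taken from the groups with 2. Against 24-week wild type prostates, the tumor's median difference was -0.00 with 4 estimates positive, limma called 0 of 9 (0 at an unadjusted p under 0.05, against 58.5% of all genes) and 52.2% of all genes, and Adipoq differed by 0.01 (95% interval -3.46 to 3.48). Pparg was above both wild type libraries in the tumor and Plin4 below both, as were 45.5% and 44.4% of all genes.

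**Figure D5:**
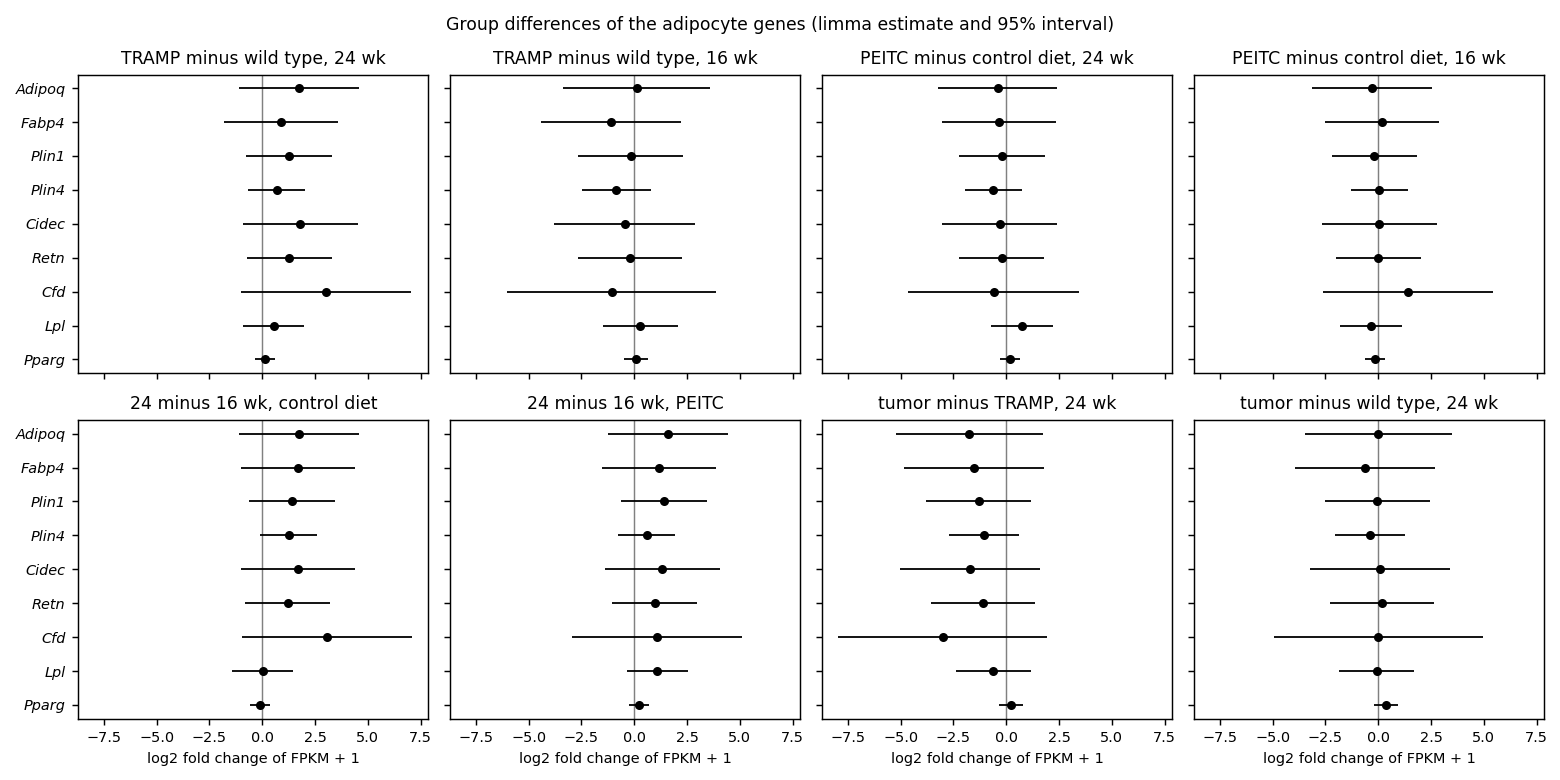
Difference on the log2(FPKM + 1) scale with its 95% interval for each of the 9 adipocyte genes tested, from limma, with 1 panel for each of 8 comparisons. All intervals shown hold 0, from the wide ones of Cfd (-1.02 to 7.05 in TRAMP against wild type at 24 weeks) to the narrow ones of Pparg (-0.33 to 0.61).

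Of 37 further adipocyte genes, 36 were in the table and 32 were tested, and calls among them are given beside the share of all genes called in the same comparison. In TRAMP against wild type prostates at 24 weeks limma called 3 higher and 7 lower of the 32, against 45.0% of all genes, with a median of 0.04. Pde3b, a phosphodiesterase that curbs lipolysis, was higher by 1.84 (SE 0.21, adjusted p = 0.00034), Cav1 of the caveolae was lower by a difference of -1.02 (SE 0.34, adjusted p = 0.0418), and Dgat2, which makes triglyceride, was higher by 0.89 (SE 0.17, adjusted p = 0.00379). At 16 weeks 2 were higher and 7 lower, against 33.6% of all genes, and with the 24-week wild type libraries in place of the 16-week one 2 were higher and 7 lower, against 42.1% of all genes. In the tumor against TRAMP prostates 0 were higher and 5 lower, against 11.8% of all genes, among them Dgat2 at -0.81, Gpam, an acyltransferase of glycerolipid synthesis, at -0.79 and the transcription factor Klf15 at -0.65. Against wild type, 4 were higher in the tumor and 10 lower, against 52.2% of all genes, with Lipe, the hormone-sensitive lipase, at 1.60. For PEITC diet and for age, 0 of the 32 were called. Most of the called genes named here were far from Adipoq in the ranking by profile given above, where low ranks are nearest. Pde3b ranked at 12683, Gpam at 11641, Klf15 at 11099, Cav1 at 10797 and Lipe at 2601, whereas Dgat2 ranked at 183. The calls therefore cannot be read as a change in the amount of fat, and the part of fat cells in them was not tested. Of 7 brown fat genes, 4 were tested. Limma called 2 of them higher in TRAMP than in wild type prostates at 24 weeks, Cox7a1 (0.80) and Prdm16 (0.68), against 45.0% of all genes. The others tested, Cox8b and Ppargc1a, were not called. Cox8b had 0.172 and 0.817 FPKM in these TRAMP prostates and 2.15 and 0.621 FPKM in the wild type ones. Ppargc1a had 3.77 and 3.78 FPKM against 3.76 and 3.39 FPKM.

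Some lists of other cell types also gave calls between TRAMP and wild type prostates. The 12 macrophage markers summed to 340.9 FPKM in the tumor, 217.2 to 258.3 FPKM in 24-week PEITC prostates, 192.6 to 415.3 FPKM in 24-week TRAMP control prostates, and 78.7 to 89.7 FPKM in 24-week wild type prostates. Limma called 8 of the 12 higher and 0 lower in TRAMP than in wild type prostates at 24 weeks, where it called 45.0% of all genes in either direction. At 16 weeks it called 0 of the 12, against 33.6% of all genes. With the 24-week wild type libraries in place of the 16-week one it called 5 higher, against 42.1% of all genes. The counts for the other lists below are to be read beside the same shares of the same comparisons. The 6 smooth muscle markers summed to 310.8 to 365.3 FPKM in 24-week TRAMP control prostates, against 824.7 to 866.5 FPKM in 24-week wild type prostates, and 5 of 6 were called lower at 24 weeks and 6 of 6 at 16 weeks, with either wild type group. The 10 endothelial markers summed to 37.7 FPKM in the tumor, 16.2 to 22.1 FPKM in 24-week TRAMP control prostates and 13.5 to 15.1 FPKM in 24-week wild type prostates, with 1 of 10 called higher in TRAMP. At 16 weeks they summed to 10.8 to 17.1 FPKM in TRAMP control prostates and 25.3 FPKM in the wild type prostate, with 2 of 10 called lower, and 1 with the 24-week wild type libraries. Fabp4 is made by macrophages and endothelium and Lpl by macrophages, and the part of these cells in the levels of both genes was not tested.

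As a single index, the geometric mean of FPKM + 1 was taken over the 10 genes, including those also made outside fat. It was 14.1 in replicate 1 of the 24-week PEITC group and 11.3 in replicate 2 of the 24-week TRAMP control group. It was 5.30 in replicate 0 of the 24-week wild type group, 4.61 in replicate 0 of the 16-week TRAMP control group and 4.52 in replicate 0 of the 24-week TRAMP control group. The remaining 7 libraries lay between 1.84 and 3.84, with the tumor at 3.10. This order is not that of Adipoq alone: the 16-week wild type prostate had an index of 3.84 with 1.24 FPKM of Adipoq, and the tumor 3.10 with 1.42 FPKM. The lowest was replicate 1 of the 24-week wild type group, so that the lowest and the third highest of the 12 came from the same group.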

How the data were processed

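RNA from 11 mouse prostates or pools of them and 1 tumor had been sequenced, and the values used are the FPKM deposited by the authors for 24421 genes in each of the 12 libraries. Reads were aligned to mm10, and HISAT2, Picard, featureCounts and DESeq2 are named without versions in the submitters' processing notes. Which annotation and which library total the FPKM rest on was not given in the sources used here. FPKM summed to 395678 to 467650 per library, and relative depth was read from the smallest steps of low values.

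The analysis ran on log2(FPKM + 1), a scale that understates changes of low genes, in limma 3.58.1 (R 4.3.3). It kept 13375 genes whose average reached 0.5 FPKM and fitted 7 group means with 5 residual degrees of freedom, using empirical Bayes variances that follow the mean level. P-values are two-sided, Benjamini-Hochberg adjusted across every gene kept, and called below 0.05. For the 2 groups with 1 library, the spread of the 5 groups with 2 was assumed. The script was tested on simulated data. Positions came from GENCODE and RefSeq (GRCm38), and promoters from RefSeq. Python 3.11.15 with matplotlib 3.10.9 made the figures.

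The members and the gene lists were chosen with earlier results of these data known. Named were all 10 members, up to 3 called genes of each other list with the largest differences, and the 10 other genes nearest to Adipoq. Genes of lipid synthesis, Pck1, Car3 and Ucp1 were singled out after their values were seen. Alternatives were other pseudocounts, no minimum level, other scalings, a replicate block and leaving out each library.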

Additional observations from a re-analysis of the deposited data

How the results depend on the processing

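Over 101 combinations of a comparison with another setting, many of them from the same fit, limma called 0 adipocyte genes, and 0 of 909 single values passed. The lowest adjusted p was 0.0588, for Cfd in TRAMP against wild type prostates at 24 weeks without replicate 0 of the wild type group. Of 101 medians over the genes tested, 4 moved by 1 SD between replicates (1.39 on the log2 scale) or more. Leaving out single libraries gave -1.52 to 1.29 for PEITC against control diet at 24 weeks, -0.28 to 2.68 for 24 against 16 weeks on PEITC diet, and -1.57 to 1.25 for the difference of the PEITC effect between ages. Only the upper end of each of these ranges had moved by 1 SD or more. With a pseudocount of 0.1, the median difference of the TRAMP effect between ages was 3.09. The cause was not tested. The 24 index values under other scalings changed by at most 0.459, against an SD between replicates of 4.40.

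Deviations of same-numbered libraries, without the 24-week TRAMP control group, correlated between -0.31 and 0.28. With 1 difference per group, this cannot decide whether such libraries were paired. Number 2 occurred only in the 24-week TRAMP control group, so the replicate block left the level of that group to its replicate 0. The tumor was counted as replicate 0. Leaving out replicate 2 without a block gave medians of 0.38 for TRAMP against wild type and 0.42 for PEITC against control diet at 24 weeks. With the replicate block the adipocyte medians were 0.50 for TRAMP against wild type at 24 weeks and 0.52 for PEITC against control diet at 24 weeks, and 0 genes of the set were called. Over all genes, the block gave 3986 calls in place of 6014 for TRAMP against wild type at 24 weeks, 902 in place of 1573 for the tumor against TRAMP, 65 in place of 0 for PEITC at 24 weeks, 0 in place of 1 for PEITC at 16 weeks, 99 in place of 1 for age on control diet and 49 in place of 1 for the PEITC effect between ages. With no minimum level, 20788 genes were tested and the calls were 297 in place of 49 for the TRAMP effect between ages, 9 in place of 0 and 6 in place of 1 for PEITC at 24 and 16 weeks, 4 in place of 1 and 13 in place of 0 for age on control and PEITC diet, and 12 in place of 1 for the PEITC effect between ages. Groups of 1 or 2 libraries, low levels and unknown depth limit all of these values.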
